A study of Mus musculus with 7 samples.

Results

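The enzymes that write, oxidise and indirectly control DNA methylation were followed in 7 RNA-seq libraries of LT-HSCs, the long-term stem cells of mouse marrow from which all blood lineages can be rebuilt. The set comprised 8 genes of the 53458 to which deposited transcripts could be assigned: the methyltransferases Dnmt1, Dnmt3a and Dnmt3b, the dioxygenases Tet1, Tet2 and Tet3, and the isocitrate dehydrogenases Idh1 and Idh2. They were chosen by name, as drivers of clonal haematopoiesis and their paralogs, and not by any measured value. The libraries came from 3 aged C57/BL6 mice with 1 functional copy of Srp72 (genotype Srp72+/-), set against 4 aged C57/BL6 mice with both copies (Srp72+/+, called WT). Srp72 encodes a protein of the signal recognition particle, the ribonucleoprotein that brings ribosomes making secreted and membrane proteins to the endoplasmic reticulum. Cells were sorted as negative for Gr1, Mac1, CD3, B220, Ter119, CD48 and Flt3 and positive for CD150, cKit and Sca1. The sources used here give neither the exact age and sex of the mice nor the way the Srp72 allele was disrupted.

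DNMT1 copies methylation onto the new strand after replication, while DNMT3A and DNMT3B add it to unmethylated CpG sites. TET enzymes oxidise methylcytosine and need 2-oxoglutarate to do so, which IDH1 makes in the cytosol and IDH2 in mitochondria. In human blood, DNMT3A and TET2 are the genes most often mutated in clonal haematopoiesis, and mutant IDH1 or IDH2 makes 2-hydroxyglutarate, which inhibits TET enzymes.

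The libraries held 18370936, 19752324 and 35247472 estimated reads in Srp72+/- mice, and between 18054322 and 21826533 in WT mice. The label of LT-HSCs was checked on 13 stem cell marker genes, all of which had reads in every library. Their summed level was 1496, 2462 and 2585 CPM (counts scaled to library size) in Srp72+/- libraries, against 3055, 229, 2497 and 2908 CPM in WT libraries. The library labelled WT 2 therefore stood apart and went against its cell type label, and in it the stem cell markers Procr (0.064 CPM) and Fgd5 (0.640 CPM) were near 0. Transcripts of 8 neutrophil genes summed to 12000, 5081 and 1149 CPM in Srp72+/- libraries, against 119, 38800, 8520 and 2716 CPM in WT libraries. Those of 8 erythroid genes summed to 6276, 1162 and 227 CPM in Srp72+/- libraries, against 137, 8625, 158 and 351 CPM in WT libraries. WT 2 and Srp72+/- 1 thus had the highest sums of both lists in their groups. For the 8 enzyme genes alone, fold changes are also given without these libraries. WT 2 is 1 of the 4 values in every WT mean, SD and range below unless it is said to be left out. Srp72 itself had 71.9, 45.7 and 109.8 CPM in Srp72+/- libraries, against 99.6, 136.6, 103.0 and 88.4 CPM in WT libraries. The fold change of Srp72 was 0.71 (95% interval 0.43 to 1.18), so the groups overlapped in the gene that the genotype concerns, and Srp72+/- 3 lay above 3 of the 4 WT libraries.

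None of the 8 genes differed between genotypes beyond the spread between mice. The quasi-likelihood test of edgeR, adjusted over all 20314 genes tested, called 0 of 8, with an adjusted p of 0.9998 for each. None had an unadjusted p below 0.05 (lowest 0.24, for Idh1), and DESeq2 also called 0 of 8. Across all genes edgeR called 0%, 1.8% had an unadjusted p below 0.05, and DESeq2 called 9 genes (0.0447% of 20154). In 3.57% of all genes the CPM values of the genotypes did not overlap (2.08% higher and 1.49% lower in Srp72+/- libraries), and in 0 of the 8 members. Of the members, 2 had a higher and 6 a lower fitted value in Srp72+/- libraries, where 49.3% of all genes were higher. Their median log2 fold change was -0.02, beside -0.01 over all genes tested. In bulk RNA, fewer cells of a type and less RNA per cell cannot be told apart.

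**Figure D1:**
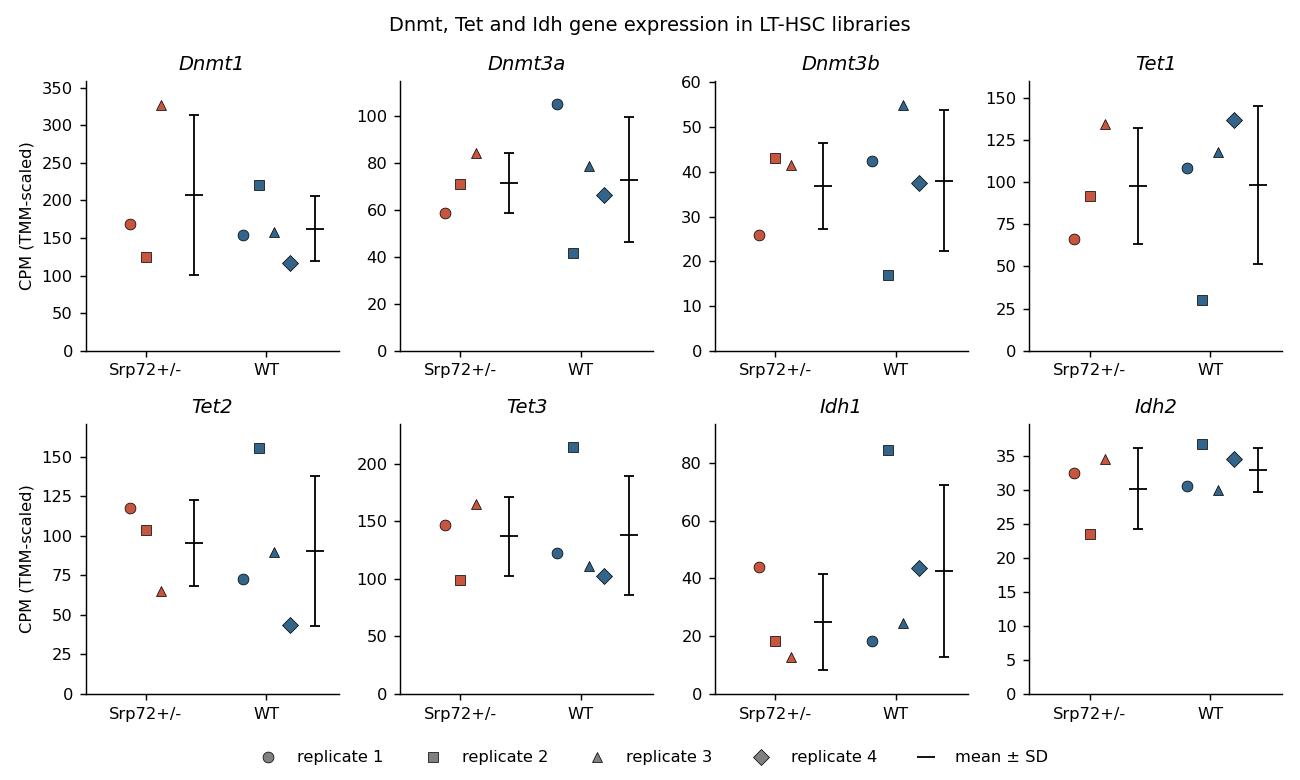
Expression of the 8 genes in each library (y axis, TMM-scaled CPM from 0; symbols are replicates, black bars the mean ± SD; Srp72+/- left, n = 3, WT right, n = 4). The genotypes overlap in every panel, and WT 2 (square) is the lowest WT library for Dnmt3a, Dnmt3b and Tet1 and the highest for the other 5 genes.

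The de novo methyltransferase Dnmt3a (chr12:3806007-3914443, plus strand, GRCm38 as for all positions) had 58.5, 71.1 and 84.2 CPM in Srp72+/- libraries, against 105.1, 41.4, 78.6 and 66.4 CPM in WT libraries. All 3 Srp72+/- values lay inside the WT range. The means were 71.3 ± 12.9 CPM in Srp72+/- mice and 72.9 ± 26.5 CPM in WT mice (SD, n = 3 and n = 4), a log2 fold change of -0.03 ± 0.32 (SE). Its 95% interval, given as folds, ran from 0.586 to 1.63.

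Dnmt3b, its paralog (chr2:153649450-153687730, plus strand), had 25.8, 43.1 and 41.6 CPM in Srp72+/- libraries, against 42.5, 17.0, 55.0 and 37.5 CPM in WT libraries. Again the Srp72+/- values fell within the WT range, and the log2 fold change was -0.04 ± 0.40 (SE). Dnmt3a and Dnmt3b moved together over the libraries, and their CPM ratio varied only from 1.65 to 2.26 in Srp72+/- libraries and from 1.43 to 2.47 in WT libraries. The root mean square difference of their centred log2 CPM values was 0.278 over the 7 libraries, the smallest of any pair among the 8 genes. Tet3 with Idh2 and Dnmt1 with Tet3, at 0.285 each, were almost as close, so such likeness was not particular to this pair.

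Dnmt1, the maintenance methyltransferase (chr9:20907209-20959888, minus strand), had the highest mean count of the set. It reached 168.7, 124.8 and 327.2 CPM in Srp72+/- libraries, against 154.4, 220.4, 157.7 and 116.7 CPM in WT libraries. The high value of Srp72+/- 3 set the direction: the log2 fold change was 0.35 ± 0.36 (SE) over all libraries and -0.15 without that library. Summed transcripts of 12 proliferation genes were 2740, 1317 and 2430 CPM in Srp72+/- libraries, against 1210, 4289, 1252 and 857.5 CPM in WT libraries. Dnmt1 and these genes were lowest in the same library of each genotype, and both were highest in WT 2 among WT libraries. Among Srp72+/- libraries the proliferation genes were highest in Srp72+/- 1, but Dnmt1 in Srp72+/- 3. The part of the proliferation genes in the level of Dnmt1 was not tested.

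Tet1 (chr10:62804570-62908996, minus strand) varied most among the TET genes over all 7 libraries, a rank that rested on WT 2. Outside WT 2, Tet1 spanned 66.2 to 136.7 CPM, and Tet2 spanned the wider fold range of 43.8 to 117.8 CPM. By library, Tet1 had 66.2, 92.1 and 134.5 CPM in Srp72+/- libraries, against 108.4, 30.1, 117.8 and 136.7 CPM in WT libraries. The low WT 2 widened the WT range; without it, Srp72+/- 1 and Srp72+/- 2 lay below every WT library. The log2 fold change was -0.01 ± 0.48 (SE) over all libraries and -0.31 without WT 2, called in neither case. Its 95% interval in folds, from 0.461 to 2.14, was wide.

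Tet2 (chr3:133463679-133545139, minus strand), the TET gene mutated in human clonal haematopoiesis, had 117.8, 103.7 and 64.9 CPM in Srp72+/- libraries, against 72.8, 155.3, 89.8 and 43.8 CPM in WT libraries. Both the highest and the lowest value belonged to WT. The means were 95.5 ± 27.4 CPM in Srp72+/- mice and 90.4 ± 47.2 CPM in WT mice (SD), a log2 fold change of 0.08 ± 0.42 (SE). Tet3, the third paralog (chr6:83362373-83459084, minus strand), had 147.1, 98.5 and 165.2 CPM in Srp72+/- libraries, against 122.8, 214.5, 111.2 and 102.0 CPM in WT libraries. Its log2 fold change was -0.01 ± 0.32 (SE), and only 1 library of each genotype lay outside the other's range.

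Idh1 (chr1:65158616-65186500, minus strand) had the largest fitted difference of the set and the largest spread. It had 43.8, 18.2 and 12.6 CPM in Srp72+/- libraries, against 18.4, 84.3, 24.4 and 43.7 CPM in WT libraries. In both genotypes 1 library or more was several-fold above the lowest, and the range over all 7 libraries was 6.68-fold. The log2 fold change was -0.78 ± 0.62 (SE; unadjusted p = 0.24, adjusted p = 0.9998, edgeR). Without WT 2 it was -0.21, without Srp72+/- 1 it was -1.50, and without both it was -0.91 (unadjusted p = 0.0666, adjusted p = 0.9999, edgeR), lower in each case and called in none.

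Idh2, the mitochondrial enzyme (chr7:80094846-80115392, minus strand), was the steadiest gene of the set. It had 32.6, 23.6 and 34.7 CPM in Srp72+/- libraries, against 30.7, 36.8, 30.1 and 34.7 CPM in WT libraries. Only Srp72+/- 2 lay apart, below the others, and the log2 fold change was -0.13 ± 0.24 (SE; 95% interval in folds from 0.626 to 1.34). The ratio of Idh2 to Idh1 in CPM was 0.744, 1.29 and 2.75 in Srp72+/- libraries, against 1.67, 0.437, 1.23 and 0.792 in WT libraries, again with overlapping groups.

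**Figure D2:**
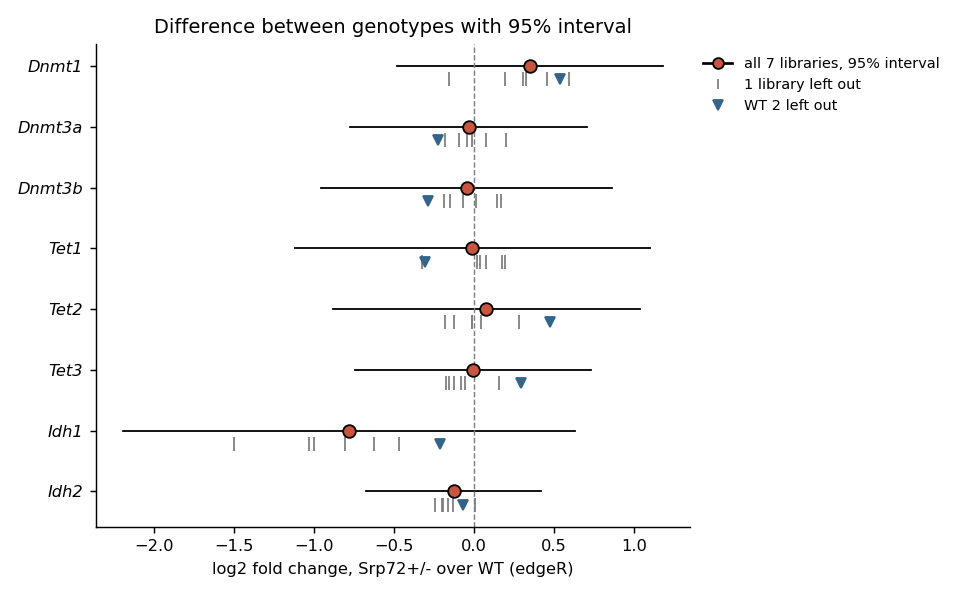
Log2 fold change of each gene, Srp72+/- over WT (x axis; points with 95% intervals from edgeR, n = 3 and n = 4), with the estimates after leaving out 1 library (grey ticks; blue triangles, WT 2 left out). Every interval spans 0, and the triangle of Idh1 lies at -0.21 where the estimate over all libraries is -0.78.

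In several of the genes WT 2 and Srp72+/- 1 lay apart from the other libraries of their genotype. In WT 2, Tet1 was 0.255 times, Dnmt3b 0.400 times and Dnmt3a 0.526 times the median of the other WT libraries. In the same library Idh2 was 1.20 times, Dnmt1 1.43 times, Tet3 1.93 times, Tet2 2.13 times and Idh1 3.45 times that median. In Srp72+/- 1, relative to the mean of the other Srp72+/- libraries, Tet1 was 0.584 times, Dnmt3b 0.610 times, Dnmt1 0.747 times and Dnmt3a 0.754 times. Tet3 and Idh2 were 1.12 times that mean each, Tet2 1.40 times and Idh1 2.84 times. By these ratios 7 of the 8 genes lay on the same side in Srp72+/- 1 as in WT 2, and Dnmt1 on the opposite one. For Dnmt1, Tet3 and Idh2, however, Srp72+/- 1 lay between the other Srp72+/- libraries, so it did not stand apart in them. Both libraries had the fewest stem cell marker transcripts and the most neutrophil, erythroid and B cell transcripts of their genotype, and the part of those cells in the levels was not tested. Without WT 2 the log2 fold changes were 0.54 for Dnmt1, -0.22 for Dnmt3a, -0.29 for Dnmt3b, -0.31 for Tet1, 0.48 for Tet2, 0.29 for Tet3, -0.21 for Idh1 and -0.07 for Idh2. Without WT 2 and Srp72+/- 1 they were 0.66 for Dnmt1, -0.10 for Dnmt3a, -0.09 each for Dnmt3b and Tet1, 0.29 for Tet2, 0.24 for Tet3, -0.91 for Idh1 and -0.12 for Idh2. None was called in either fit, and the direction of Tet3 turned in both.

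**Figure D3:**
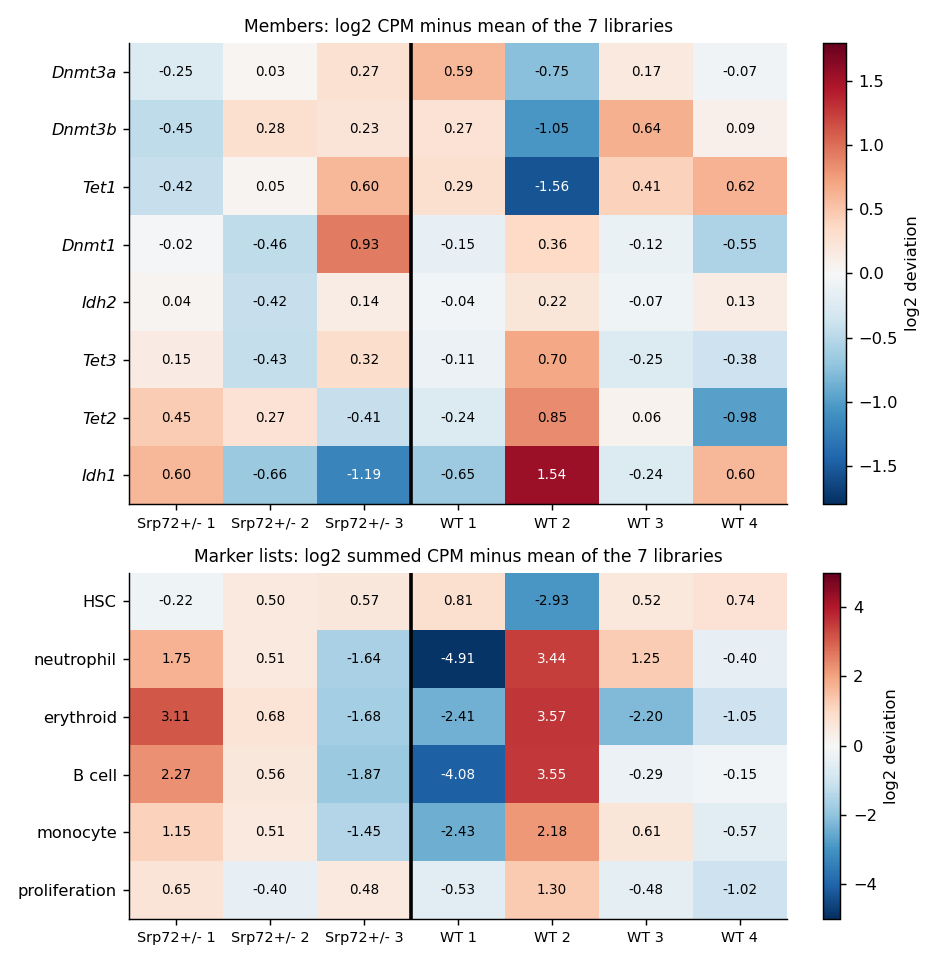
Log2 CPM of each gene (top) and log2 summed CPM of 6 marker lists (bottom), each minus its mean over the 7 libraries (columns; Srp72+/- left of the line, WT right; the colour scales of the panels differ). In WT 2 the stem cell list is at -2.93 and the neutrophil list at 3.44, with Tet1 at -1.56 and Idh1 at 1.54.

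For each gene, the genes with the most similar profile were found among 10386 protein-coding genes with a mean of at least 5 CPM, by the root mean square difference of centred log2 CPM over the 7 libraries. The median difference from all these genes ran from 0.45 for Idh2, the steadiest member, to 0.99 for Idh1. The closest of so many genes are near by selection. The closest were Cux1 and Zfp780b for Dnmt3a (0.10 each), Fchsd2 (0.11) and Anks1 (0.12) for Dnmt3b, and Ltv1 (0.11) and Slx4ip (0.12) for Dnmt1. For the TET genes they were Abhd4 (0.11) and Mllt6 (0.13) for Tet1, Fam114a1 (0.10) and Rap2a (0.20) for Tet2, and Mms22l (0.09) and Mrpl42 (0.10) for Tet3. Gda (0.17) and Hpse (0.21) were closest to Idh1, and Rbm17 and Plekho2 (0.06 each) to Idh2. Gda, which encodes guanine deaminase, had 238, 146.5 and 71.8 CPM in Srp72+/- libraries, against 129.0, 532, 157.0 and 286 CPM in WT libraries, with its peak in WT 2 as for Idh1. The farthest pair within the set was Tet1 and Idh1, at 1.50.

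Levels of different genes can be compared per length, in TPM (transcript abundance scaled by length and library). Much of the summed TPM of these genes came from short annotated models that carry few reads. Dnmt1-205, a processed transcript of 607 bases, made up 56.7% of the TPM of Dnmt1 but 10.1% of its reads. Idh2-206, a retained intron model of 485 bases, made up 60.0% of the TPM of Idh2 but 21.6% of its reads. The comparison was therefore made over transcripts whose coding sequence is at least 70% as long as the longest of the gene, which held between 59.3% (Tet2) and 97.9% (Idh1) of the reads on average.

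Ordered by the mean over all 7 libraries, Dnmt1 was highest over these long coding transcripts, with 14.1 ± 3.92 TPM in Srp72+/- mice and 9.95 ± 1.72 TPM in WT mice (SD, n = 3 and n = 4, as for all levels here). Idh2 followed with 5.54 ± 1.05 TPM in Srp72+/- mice and 5.94 ± 0.809 TPM in WT mice. Its level in each of the 7 libraries was below the lowest of Dnmt1, so these neighbours did not overlap, whereas Idh1, which comes next, did overlap Dnmt1. Idh1 had 4.79 ± 2.99 TPM in Srp72+/- mice and 6.41 ± 2.90 TPM in WT mice, and Tet3 had 4.76 ± 0.920 TPM in Srp72+/- mice and 4.00 ± 0.699 TPM in WT mice. Dnmt3b had 3.81 ± 1.29 TPM in Srp72+/- mice and 3.37 ± 1.55 TPM in WT mice. Dnmt3a had 3.35 ± 0.412 TPM in Srp72+/- mice and 3.12 ± 1.25 TPM in WT mice. Tet2 had 2.49 ± 0.994 TPM in Srp72+/- mice and 2.13 ± 0.834 TPM in WT mice, and Tet1 had 2.33 ± 0.639 TPM in Srp72+/- mice and 2.13 ± 1.21 TPM in WT mice. From Idh2 downward each gene overlapped its neighbour in this order, and in WT mice alone the mean of Idh1 was above that of Idh2. That last order rested on WT 2, which had 9.82 TPM of Idh1 and 4.78 TPM of Idh2. In WT 1, WT 3 and WT 4, Idh1 had 3.23, 4.98 and 7.61 TPM, against 6.03, 6.34 and 6.61 TPM of Idh2.

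**Figure D4:**
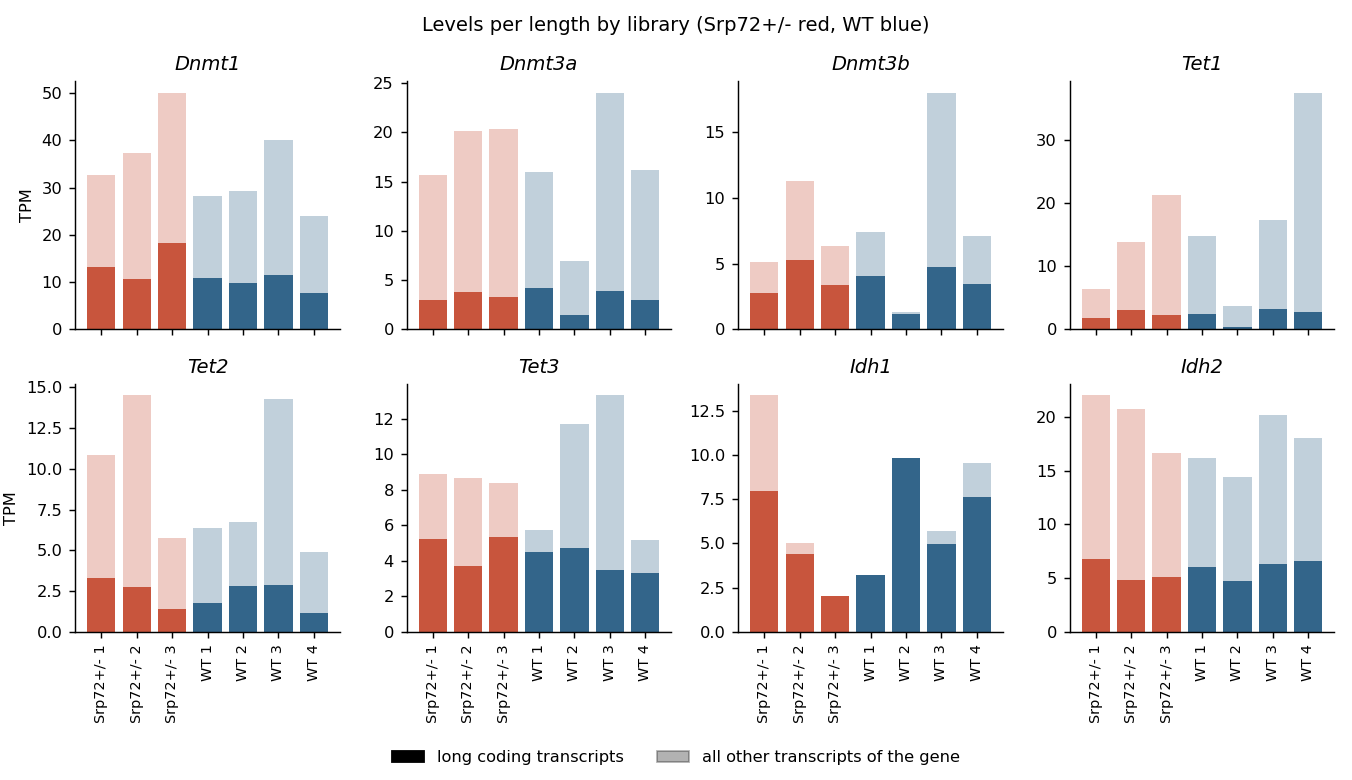
TPM of each gene by library (y axis from 0, scales differ between panels; Srp72+/- red, WT blue), split into long coding transcripts (dark) and all other transcripts (pale). The pale part is the larger for Dnmt1, Dnmt3a, Tet1, Tet2 and Idh2 in every library, and the dark part of Dnmt1 spans 7.57 to 18.3 TPM.

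GENCODE lists 76 transcripts for the 8 genes, of which 13 had no reads in any library and 45 passed the filter on low counts. The edgeR test on transcripts called 0 of these 45, and 0 of 51427 transcripts overall. The test for a shift in isoform usage (diffSpliceDGE of edgeR) called 35 of 9841 genes (0.356%) and none of the 7 members that could be tested, each with an adjusted p of 1. Without adjustment, 3.22% of genes and 0 of these 7 members had a p below 0.05, and the same held for 2.02% of transcripts and 0 of the 45. Idh1 had too few tested transcripts, since Idh1-201 held 94.4% of its reads. Groups did not overlap in 2 of the 45 member transcripts, a share close to the 4.54% of all transcripts tested (2.78% higher in Srp72+/- libraries). Both belong to Dnmt3a. They are described below and, at that share, are not read as a change in Dnmt3a.

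Dnmt3a starts at more than 1 promoter. Transcripts from the upstream start (Dnmt3a-201 and Dnmt3a-218) encode the full-length protein of 908 residues. Those from the downstream start (Dnmt3a-203 and Dnmt3a-205) encode a form of 689 residues that lacks the amino-terminal part, known from embryonic stem cells and germ cells as DNMT3A2. The promoter windows of both starts are shown because the non-overlapping transcripts include one from the downstream start; each runs from 250 bases before to 50 bases after the start (RefSeq, GRCm38.p6, plus strand of chromosome 12), with CG dinucleotides, the target of these enzymes, in capitals. The first is chr12:3806910-3807209 and the second chr12:3891494-3891793, which lies within the gene, between the first and last exon of the long form.
Dnmt3a-218 start: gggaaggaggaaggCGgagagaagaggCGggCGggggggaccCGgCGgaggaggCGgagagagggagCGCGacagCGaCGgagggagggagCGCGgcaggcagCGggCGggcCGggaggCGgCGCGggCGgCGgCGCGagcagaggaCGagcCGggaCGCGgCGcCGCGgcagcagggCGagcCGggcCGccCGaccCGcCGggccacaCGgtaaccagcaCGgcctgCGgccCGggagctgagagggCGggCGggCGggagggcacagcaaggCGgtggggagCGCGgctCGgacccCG
Dnmt3a-203 start: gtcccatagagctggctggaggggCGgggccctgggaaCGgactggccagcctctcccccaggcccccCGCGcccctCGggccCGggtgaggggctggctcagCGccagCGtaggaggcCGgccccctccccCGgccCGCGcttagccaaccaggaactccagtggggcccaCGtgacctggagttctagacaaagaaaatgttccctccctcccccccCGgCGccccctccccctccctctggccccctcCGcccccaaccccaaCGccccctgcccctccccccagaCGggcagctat

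The upstream window held 47 CG and the downstream window 18. CG, which reads the same on both strands, was present in 94.6% of 32850 promoter windows of 300 bases, with a median of 7, and 98.6% of windows held fewer than the upstream one and 70.3% fewer than the downstream one. The deposited files hold no methylation data, so nothing is known here of the state of these sites.

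Dnmt3a-203 had 1.34, 1.78 and 0.510 TPM in Srp72+/- libraries, against 0.117, 0.178, 0 and 0 TPM in WT libraries. Each Srp72+/- value was above each WT value, yet the log2 fold change was 3.47 ± 1.68 (SE; unadjusted p = 0.0752, adjusted p = 1, edgeR). Its neighbour Dnmt3a-205, which shares the coding sequence, had 0, 0 and 0.720 TPM in Srp72+/- libraries, against 0, 0.439, 1.13 and 0.867 TPM in WT libraries, so the 2 models were often high in opposite libraries. Summed, the short form had 1.34, 1.78 and 1.23 TPM in Srp72+/- libraries, against 0.117, 0.616, 1.13 and 0.867 TPM in WT libraries. The groups still did not overlap, but the gap had narrowed to that between 1.23 and 1.13 TPM. In CPM the sum was 16.0, 18.1 and 12.9 in Srp72+/- libraries, against 1.61, 6.81, 5.17 and 4.75 in WT libraries, a wider gap. The sum was formed after its values were seen, so no test is given for it.

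The long form had 1.66, 2.02 and 2.01 TPM in Srp72+/- libraries, against 4.12, 0.818, 2.74 and 2.08 TPM in WT libraries. It was lowest in WT 2 and highest in WT 1, with the Srp72+/- values between. The short form made up 44.7%, 46.8% and 38.0% of both forms in Srp72+/- libraries, against 2.76%, 43.0%, 29.2% and 29.5% in WT libraries, so WT 2 lay among the Srp72+/- values. The other non-overlapping transcript, Dnmt3a-207, is a fragment of 550 bases, and it had 0, 0.841 and 0 TPM in Srp72+/- libraries, against 3.61, 0.762, 3.42 and 2.38 TPM in WT libraries. Its TPM values overlapped, while its CPM values did not (0, 0.494 and 0 in Srp72+/- libraries, against 2.58, 0.812, 2.17 and 1.86 in WT libraries), and its log2 fold change was -3.46 ± 1.67 (SE; unadjusted p = 0.0748, adjusted p = 1, edgeR). Reads shared by such models were divided among them by the authors' tool.

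**Figure D5:**
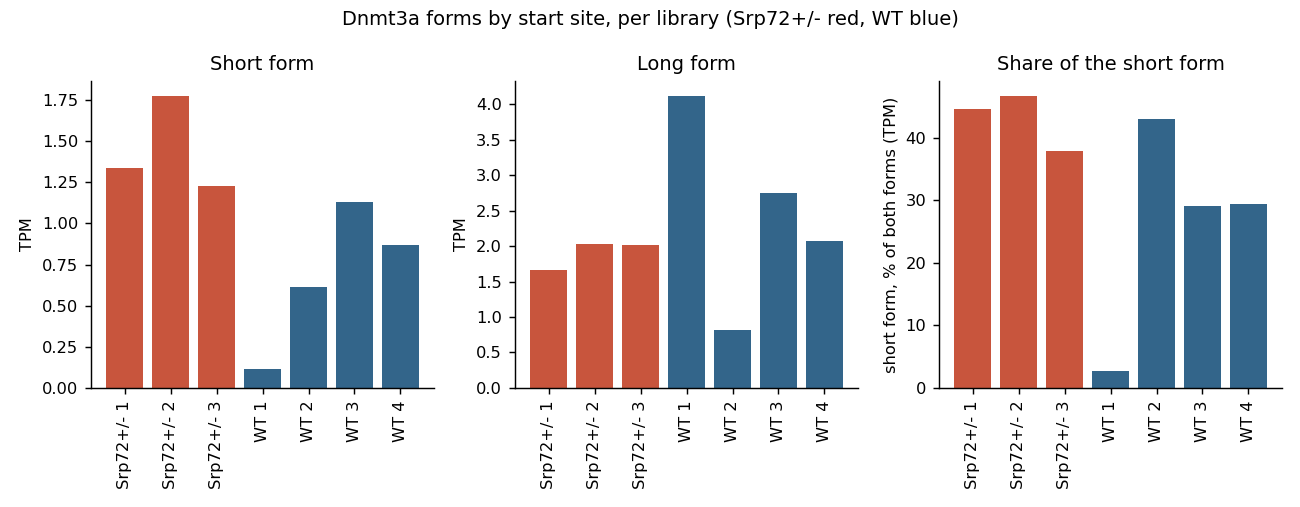
TPM of the short form (Dnmt3a-203 and Dnmt3a-205) and the long form (Dnmt3a-201 and Dnmt3a-218), and the share of the short form in both (y axes from 0; bars are libraries; Srp72+/- red, WT blue). The lowest Srp72+/- bar of the short form is at 1.23 TPM and the highest WT bar at 1.13 TPM, and in the share WT 2 (43.0%) is above Srp72+/- 3 (38.0%).

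Dnmt1 also has alternative starts, and the windows of Dnmt1-202 (chr9:20959839-20960138) and Dnmt1-201 (chr9:20952930-20953229) are shown because most reads of Dnmt1 were assigned to Dnmt1-201. Both are given 5′ to 3′ on the minus strand, as above, with CG in capitals.
Dnmt1-202 start: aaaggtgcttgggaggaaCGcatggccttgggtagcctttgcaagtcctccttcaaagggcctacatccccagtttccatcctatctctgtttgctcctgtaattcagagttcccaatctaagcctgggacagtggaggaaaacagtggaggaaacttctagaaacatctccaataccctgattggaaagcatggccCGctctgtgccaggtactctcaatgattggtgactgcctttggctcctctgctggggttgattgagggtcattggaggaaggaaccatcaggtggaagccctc
Dnmt1-201 start: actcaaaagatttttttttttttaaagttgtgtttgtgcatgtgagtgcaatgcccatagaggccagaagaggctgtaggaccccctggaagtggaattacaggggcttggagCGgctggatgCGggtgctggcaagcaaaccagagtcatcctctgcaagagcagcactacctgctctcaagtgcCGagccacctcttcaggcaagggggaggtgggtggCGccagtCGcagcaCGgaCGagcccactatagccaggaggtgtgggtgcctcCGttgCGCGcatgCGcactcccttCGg

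These windows held 2 and 12 CG, and that of another start, Dnmt1-203 (chr9:20952574-20952873), held 33. Dnmt1-201 took 59.7% of the reads of Dnmt1, with 10.2, 7.67 and 10.9 TPM in Srp72+/- libraries, against 7.91, 7.75, 8.60 and 5.20 TPM in WT libraries. Dnmt1-202 had 2.36, 2.01 and 2.29 TPM in Srp72+/- libraries, against 1.67, 1.54, 0 and 2.07 TPM in WT libraries. Dnmt1-203, with 13.1% of the reads, had 0.571, 0.973 and 3.64 TPM in Srp72+/- libraries, against 1.25, 0.582, 2.92 and 0.304 TPM in WT libraries. Of these 3 models Dnmt1-201 was the highest in every library.

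In the remaining genes most reads went to 1 or a few models. Tet3-202 held 76.1% of the reads of Tet3 and Tet1-201 58.6% of those of Tet1. For Tet2, Tet2-201 and Tet2-204, which differ little in coding length, took 30.9% and 28.1%, and the retained intron model Tet2-208 took 19.2%. Tet2-201 had 1.48, 0.595 and 0.214 TPM in Srp72+/- libraries, against 0.402, 2.79, 2.86 and 0.107 TPM in WT libraries. Tet2-204 had 1.85, 2.15 and 1.18 TPM in Srp72+/- libraries, against 1.34, 0, 0 and 1.04 TPM in WT libraries, at 0 where Tet2-201 was highest. For Dnmt3b, Dnmt3b-206 held 45.1% of the reads and was at 0 in Srp72+/- 1, where Dnmt3b-208 was highest.

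Among genes acting around these enzymes, 87 listed genes were matched and 84 were tested. edgeR called 0 of them, DESeq2 0, and none had an unadjusted p below 0.05. Higher and lower fitted values were equally many (42 each). The genotypes did not overlap in 1 gene, beside 3.57% of all genes. The lists were drawn up with earlier results of these data known.

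Of 12 tested partners of the methyltransferases, 8 were higher and 4 lower in Srp72+/- libraries, with a median log2 fold change of 0.03. Uhrf1, which brings DNMT1 to newly replicated DNA, had 88.2, 51.7 and 86.9 CPM in Srp72+/- libraries, against 52.5, 106.2, 35.7 and 46.0 CPM in WT libraries, a log2 fold change of 0.33 ± 0.40 (SE). Dnmt3l, a cofactor of the de novo enzymes that lacks activity of its own, was below the filter, with 2.38, 0.357 and 0 CPM in Srp72+/- libraries, against at most 0.256 CPM in WT libraries. Of 17 genes that follow the TET enzymes or bind them, 9 were higher and 8 lower, with a median of 0.11. Tdg, the glycosylase that removes oxidised methylcytosine, had 37.9, 19.3 and 30.1 CPM in Srp72+/- libraries, against 21.7, 38.1, 20.5 and 17.1 CPM in WT libraries. Ogt, a partner of TET proteins, was the most abundant of that list, at 498 ± 138 CPM in Srp72+/- mice and 427 ± 94.2 CPM in WT mice (SD).

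Another list joined proteins that bind methylated CpG with related subunits of the NuRD complex (Mbd3, Gatad2a and Gatad2b), and all 9 of its genes had a lower fitted value in Srp72+/- libraries, with a median of -0.06. Zbtb33, which encodes the methyl-CpG binding protein Kaiso, had the lowest p of all pathway genes: 18.2, 26.3 and 32.8 CPM in Srp72+/- libraries, against 38.4, 45.9, 44.3 and 29.9 CPM in WT libraries. The groups of Zbtb33 overlapped in Srp72+/- 3 and WT 4, and its log2 fold change was -0.62 ± 0.29 (SE; unadjusted p = 0.0622, adjusted p = 0.9998, edgeR); it is named here after its values were seen.

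Of 13 genes that supply the methyl donor S-adenosylmethionine, 9 were higher and 4 lower, with a median of 0.08; Mat2a, the synthase of S-adenosylmethionine, had 282 ± 40.6 CPM in Srp72+/- mice and 257 ± 25.9 CPM in WT mice (SD). Of 13 genes that supply or remove 2-oxoglutarate and 2-hydroxyglutarate, 7 were higher and 6 lower, with a median of 0.05. D2hgdh, which oxidises 2-hydroxyglutarate back to 2-oxoglutarate, was the gene without overlap. It had 23.9, 22.5 and 23.7 CPM in Srp72+/- libraries, against 19.6, 11.6, 21.1 and 20.2 CPM in WT libraries. Its log2 fold change was 0.37 ± 0.29 (SE; unadjusted p = 0.238, adjusted p = 0.9998, edgeR). Of 20 other drivers of clonal haematopoiesis, 9 were higher and 11 lower, with a median of -0.07. Asxl1, a chromatin regulator among them, had 87.8 ± 10.6 CPM in Srp72+/- mice and 94.2 ± 6.62 CPM in WT mice (SD), and Ppm1d, a phosphatase that opposes p53, had 23.7 ± 6.84 CPM in Srp72+/- mice and 18.8 ± 3.14 CPM in WT mice.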

How the data were processed

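RNA from sorted LT-HSCs was amplified with the NuGEN Ovation V2 system and made into Illumina TruSeq V2 libraries, per the labels' protocols. The deposited expected counts and TPM values per transcript were made with Salmon 0.12.0, per the submitters' processing notes, which name mm10 and GRCm38.p6. The sources used here give neither its options nor its strand setting, which leaves overlapping and antisense genes uncertain. Amplifying small inputs can add to the spread, and without molecular identifiers a read is not an independent molecule.

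Here 136176 of 136288 transcripts were matched to GENCODE M21 (GRCm38), expected counts were summed per gene and rounded, and TPM values were summed unchanged. Unmatched transcripts held at most 0.0622% of a library's reads. Genes and transcripts passing filterByExpr (minimum count 10, minimum total 15) were scaled by TMM and compared in edgeR 4.0.16 by its quasi-likelihood test (robust, with no covariate) in R 4.3.3, with Benjamini-Hochberg adjustment over all features and a threshold of 0.05. DESeq2 1.42.0, other scalings and filters, a length offset, a replicate block and leaving out libraries were tried as alternatives. Log2 CPM used a prior count of 2. The isoform usage test made more false calls on simulated data than its threshold allows, while the gene and transcript tests kept to theirs or near it. The simulated counts varied independently between genes, with no shift shared by many genes as in WT 2. They therefore cannot show how the tests behave with such a library. Libraries went to groups by their genotype label.

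All 8 members were named. From each pathway list a few genes fixed by name and those with the highest mean CPM were named, and not every one is described. Transcripts of at least 5% of a gene's mean TPM were eligible; others are named as parts of the Dnmt3a forms or as starts of Dnmt1, after their values were seen. The members and lists were chosen with earlier results of these data known. P-values set the difference between genotypes against the spread between these libraries.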

Additional observations from a re-analysis of the deposited data

Results flagged for a closer look

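Among 45 sets of 4 WT values, 2 held a library far from the others; chance gives such a gap in about 1 group in 20. D2hgdh had 11.6 CPM in WT 2, where the other WT libraries had between 19.6 and 21.1 CPM. Ppm1d had 14.1 CPM in WT 4, where the other WT libraries had between 20.1 and 20.7 CPM. None of the 8 members had such a gap.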

How the results depend on the processing

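No member, no pathway gene and no transcript was called under any alternative run. Over all genes, DESeq2 called 9, the fit without WT 4 called 1 and the other fits that leave out 1 library called 0, where edgeR on all libraries called 0. The background depended on WT 2: without it 962 of 19856 genes had an unadjusted p below 0.05 in edgeR, against 365 of 20314 with all libraries. The lowest adjusted p in edgeR was 0.103 without WT 2 and 0.9998 with all libraries. The count of genes with shifted isoform usage was 35 and ranged from 24 to 69 when 1 library was left out (58 without WT 1, 69 without WT 2, 61 without WT 4). Of 120 pairs of member and alternative, 97 kept the direction and 23, in 7 members, reversed; Idh1 had none. Leaving out 1 library, the log2 fold change ranged from -0.15 to 0.59 for Dnmt1, from -0.22 to 0.20 for Dnmt3a, from -0.29 to 0.17 for Dnmt3b, from -0.32 to 0.19 for Tet1, from -0.18 to 0.48 for Tet2, from -0.17 to 0.29 for Tet3, from -1.50 to -0.21 for Idh1 and from -0.24 to 0.0065 for Idh2. With the length offset Dnmt3a was at 0.11, and without both WT 2 and Srp72+/- 1 Tet3 was at 0.24. The cause of these reversals was not tested.

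Replicate numbers showed no pairing over all genes tested: the correlations of deviations within numbers 1, 2 and 3 were -0.35, -0.15 and 0.03, and Srp72+/- 1 correlated best with WT 2 (0.39). With so few libraries, a weaker pairing could be missed. With the replicate block, Dnmt3b was at 0.030, Tet1 at 0.33 and Tet2 at -0.15, and 3 genes were called for isoform usage. By share of reads in place of TPM, Dnmt1-205 held 10.2%, Dnmt3a-216 4.57%, Dnmt3b-211 10.5%, Tet1-204 5.13%, Tet2-210 9.95%, Tet3-202 77.3% and Idh2-206 22.1% on average. The widths of the intervals limit what 3 and 4 mice can show: for Idh1 the 95% interval runs from 0.219-fold to 1.55-fold.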
